A study of Mus musculus with 4 samples.

Results

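The genes described here handle cysteine, glutathione, heme and metal ions in mouse peritoneal macrophages kept overnight with TGFb2, a transforming growth factor beta isoform, or with PBS. The 10 genes grouped by these roles are Cdo1, Gstm1, Gclm, Gclc, Gsr, Gpx1, Prdx1, Hmox1, Mt1 and Mt2. Of these, 9 had at least 1 Affymetrix probe set that the platform annotation assigns to that gene alone. They held 10 of the 12488 probe sets on the array, since Gstm1 had 2. The 2 probe sets that list Prdx1, a peroxiredoxin, also list a second symbol, so no value is given for it. The genes were chosen with earlier results of these data known, and their probe sets were then matched by gene symbol only.

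The cells came from female BALB/c mice aged 6 to 8 weeks, 4 days after 2 ml of 3% thioglycolate, given into the peritoneum to recruit macrophages there. One group of 2 arrays received porcine TGFb2 (5 ng, with no volume given) and the other group of 2 arrays received PBS. Both were kept overnight in the same serum-free medium, which held a selenium salt at 0.3 ng/ml and iron nitrate at 0.2 mg/ml beside iron-free transferrin, and adherent cells, labelled as more than 95% positive for F4/80, were lysed. Nothing in the labels ties a replicate to a culture or an animal of its own, so the p-values reflect array-to-array spread that may be technical only. Values are MAS5 signals, a linear intensity of each probe set, and differences are on the scale of log2(signal + 15), TGFb2 minus PBS.

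Cysteine is the scarce building block of glutathione, the main thiol of the cell. Glutamate-cysteine ligase makes the first and rate-limiting bond, glutathione peroxidases and transferases spend the product, and glutathione reductase returns the oxidised form. Cysteine dioxygenase competes for the same cysteine and commits it to taurine and sulfate. In macrophages many of these genes, and the heme-degrading enzyme Hmox1, are known targets of the transcription factor Nrf2 at antioxidant response elements, whereas metallothioneins answer to zinc through Mtf1 at metal response elements.

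Promoter windows from RefSeq's table for GRCm38.p6 were used for 5 of the 9 measured genes. The 250 bases before the annotated start were searched on both strands. None was used for Cdo1, Gclc, Gsr or Hmox1. The chromosome that holds Cdo1 was left out by choice, so its missing window does not mean that the table lacks it. For Gclc, Gsr and Hmox1 the table held no window. The metal response element core was taken as TGCACNC or TGCGCNC and occurred in 21.4% of the 32851 windows in the table. The antioxidant response element core, TGACNNNGC, occurred in 10.2% of them. Windows are printed for the metallothionein pair, for Gclm and for Gstm1, 1 probe set of which passed the test. Those of Gpx1 and of the other Gstm1 start are not printed. Capitals mark matches to either core on either strand.
Mt1 (chr8:94178839-94179088, plus strand): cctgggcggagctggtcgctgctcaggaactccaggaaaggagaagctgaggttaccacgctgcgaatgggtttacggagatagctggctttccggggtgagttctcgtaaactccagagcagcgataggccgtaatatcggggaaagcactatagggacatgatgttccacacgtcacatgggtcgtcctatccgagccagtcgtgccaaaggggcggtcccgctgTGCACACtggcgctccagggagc
Mt2 (chr8:94172368-94172617, plus strand): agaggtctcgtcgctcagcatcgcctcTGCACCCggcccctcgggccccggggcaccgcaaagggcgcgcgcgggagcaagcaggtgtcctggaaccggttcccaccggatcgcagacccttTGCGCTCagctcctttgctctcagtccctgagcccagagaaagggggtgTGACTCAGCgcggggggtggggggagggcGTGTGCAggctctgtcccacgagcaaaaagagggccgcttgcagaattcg
Gclm (chr3:122245307-122245556, plus strand): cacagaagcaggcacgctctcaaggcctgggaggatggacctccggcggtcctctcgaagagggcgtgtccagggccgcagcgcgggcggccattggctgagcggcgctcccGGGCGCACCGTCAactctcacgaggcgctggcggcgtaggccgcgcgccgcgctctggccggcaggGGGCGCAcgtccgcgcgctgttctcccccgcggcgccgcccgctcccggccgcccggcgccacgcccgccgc
Gstm1, upstream one of 2 annotated starts (chr3:108017974-108018223, minus strand): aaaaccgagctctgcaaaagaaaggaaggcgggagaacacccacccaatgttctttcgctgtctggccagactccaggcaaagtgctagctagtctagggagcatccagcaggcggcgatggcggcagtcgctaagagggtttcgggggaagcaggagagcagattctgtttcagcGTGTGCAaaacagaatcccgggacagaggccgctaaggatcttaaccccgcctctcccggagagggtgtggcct
The Mt1 window held 1 match to the metal core and the Mt2 window 3. Mt2 also held 1 antioxidant core, TGACTCAGC, at 79 to 71 bases before the start. That match contains the AP-1 site TGANTCA, which occurred in 6.75% of windows. The Gclm window held 2 metal cores and 1 antioxidant core, printed as GCACCGTCA since it lies on the other strand, and 1 of the metal cores overlaps it. Both Gstm1 windows held 1 and the same metal core, with 0 antioxidant cores, and the Gpx1 window held 0 of either. The Smad binding element core CAGAC, which occurred in 42.2% of windows, was found 2 times in the Gstm1 window printed, 1 time each in those of Mt2 and Gpx1, and 0 times in those of Mt1 and Gclm. The counts hold only for the 250 bases before each annotated start, which may not be the start used in these cells. Bases after it were not searched, so the counts do not compare the genes' full promoters. These matches describe letters and not bound sites.

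Across the 10 probe sets, 1 rose and 1 fell with TGFb2 and 8 did not pass (limma fitted over 7453 tested probe sets, Benjamini-Hochberg adjusted p under 0.05), where 1.18% of all tested probe sets passed, 0.818% upward and 0.362% downward. Since the genes were chosen with earlier results known, these counts and shares describe the group and do not test it. All 10 probe sets had enough signal to be tested, though Cdo1, the 1 that rose, reached the required level through its TGFb2 arrays only. Without the filter on signal, 0 of the 10 passed. Differences were below 0 for 7 of the 10, against 50.2% of all tested probe sets, and the median was -0.41, against -0.00082 over all of them. The 2 groups did not overlap for 6 of the 10, where 42.8% of tested probe sets did not overlap. TGFb2 was the higher group in 2 of these (21.1% of all tested) and the lower in 4 (21.7% of all tested). With 2 arrays against 2, an exact permutation test of a single probe set cannot go below p = 0.333, so no such test could pass.

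**Figure D1:**
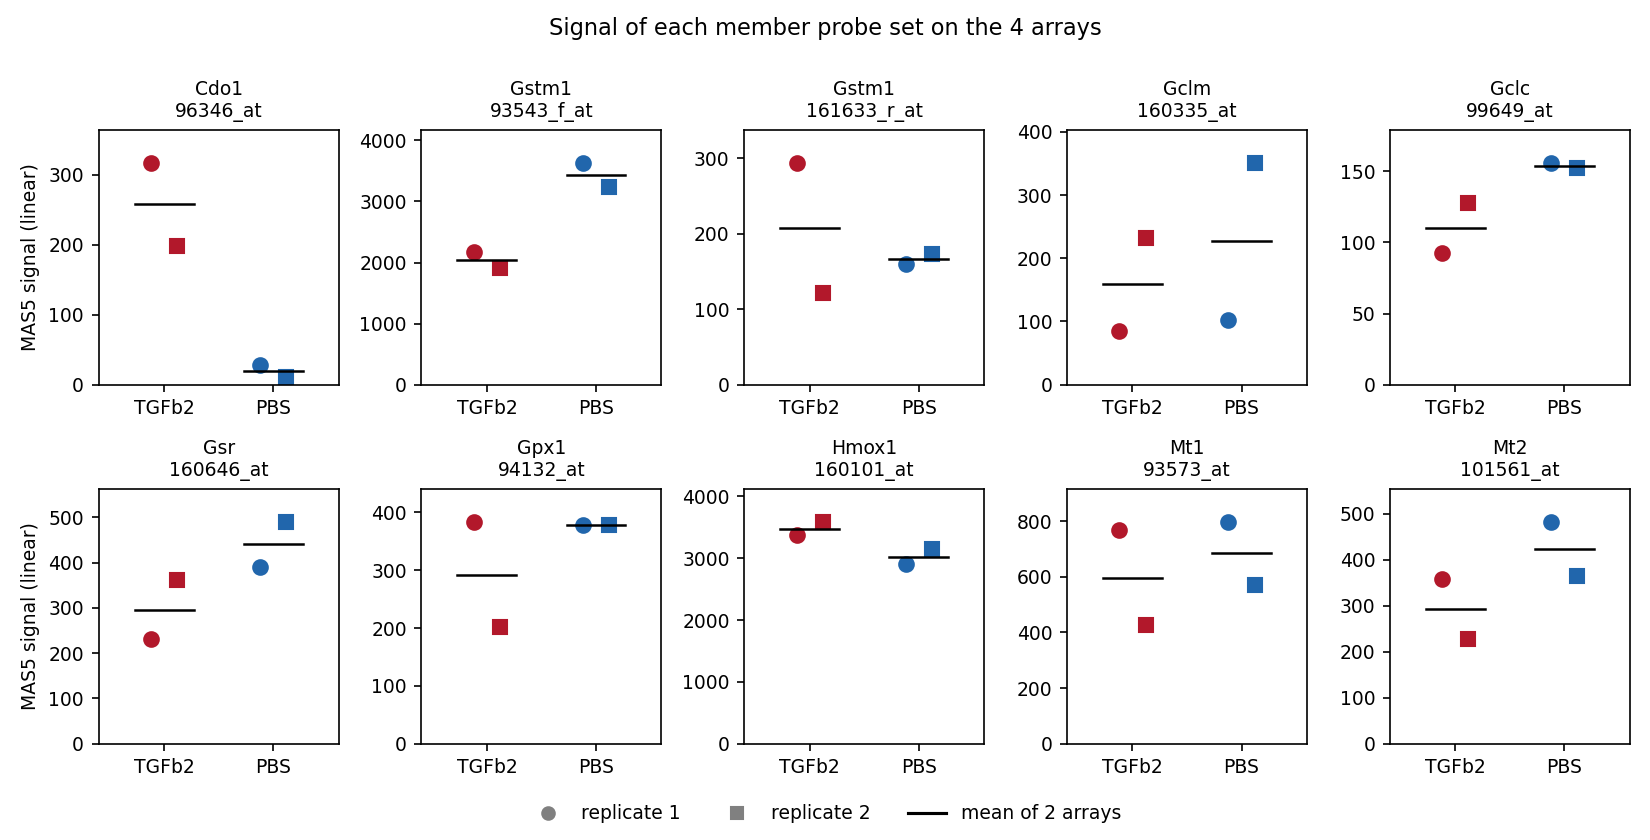
MAS5 signal (linear axis from 0) of each of the 10 probe sets, with TGFb2 arrays in red on the left and PBS arrays in blue on the right of each panel, circles for replicate 1, squares for replicate 2 and bars for the mean of 2 arrays. Cdo1 lies at 317 and 199 on the TGFb2 arrays and at 27.3 and 11.3 on the PBS arrays, and Gclm differs more between replicates 1 and 2 than between treatments.

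Cdo1, the cysteine dioxygenase, had signals of 317 and 199 on the TGFb2 arrays, against 27.3 and 11.3 on the PBS arrays. Both TGFb2 values lay far above both PBS values, and the mean signal was 13.4-fold higher. The log2 difference of 3.00 (SE 0.30, 95% interval 2.29 to 3.70, limma adjusted p = 0.0123) passed the test. One PBS signal lay just above and the other below a signal of 24.01, the level a probe set had to reach on average to be tested, so Cdo1 entered the test through its TGFb2 arrays. Whether the PBS signals stood above background is not known without detection calls, and the size of the fold is uncertain for that reason. The difference was 1.99 with a pseudocount of 60 and 3.84 with none, and passed in both cases. It did not pass without TGFb2 replicate 1 (2.68, limma adjusted p = 0.0704) or with dim probe sets kept in the test (limma adjusted p = 0.0921).

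The 3 probe sets of other genes whose centred log2 values lay nearest to Cdo1 over the 4 arrays belonged to Serpinf1 (Euclidean distance 0.28), an inhibitor of angiogenesis, Bgn (0.33), a matrix proteoglycan, and Col1a1 (0.58), a chain of collagen I. Only probe sets with a similarly large difference can lie near Cdo1, and these 3 differed by 2.81, 2.92 and 2.72. Their nearness therefore shows no pattern particular to Cdo1. Serpinf1 read 152.1 and 116.5 with TGFb2 and 12.6 and 1.2 with PBS, so it too entered the test through its TGFb2 arrays. The Col1a1 probe set read 495 and 415 with TGFb2 and 58.0 and 54.0 with PBS. Markers of fibroblasts and mesothelium, which also make collagen, were summed beside this: their 12 genes gave 1782 and 1575 with TGFb2, against 2390 and 1691 with PBS. Of the 9 tested, 1 rose (Col1a1, by its brightest probe set, with a log2 difference of 1.29) and 1 fell (decorin, Dcn, -1.63), and the other 7 did not pass, with log2 differences from -0.78 (Pdgfra) to 0.86 (Col3a1). Dcn read 318.7 and 256.5 with TGFb2, against 1130.5 and 746.8 with PBS, and the lower sum with TGFb2 rests on this 1 gene. The sum therefore gives no direction for these markers as a set. The mesothelial marker Upk3b read 63.4 and 43.2 with TGFb2 and 92.9 and 76.0 with PBS, while Msln, Krt19 and Pdgfrb lay below the filter. Their part in the Cdo1 result was not tested.

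Glutathione synthesis starts with glutamate-cysteine ligase. Its catalytic subunit Gclc had signals of 92.3 and 128 on the TGFb2 arrays, against 156 and 152 on the PBS arrays. Both TGFb2 values were the lower ones, with a log2 difference of -0.45 (SE 0.20, 95% interval -0.92 to 0.02, limma adjusted p = 0.45). The modifier subunit Gclm, which makes the ligase less sensitive to feedback by glutathione, had signals of 85.2 and 232 with TGFb2, against 103 and 351 with PBS. The groups overlapped, because replicate 2 was 2.73-fold replicate 1 with TGFb2 and 3.42-fold with PBS. The log2 difference of -0.40 (SE 0.56, 95% interval -1.71 to 0.91, limma adjusted p = 0.84) therefore leaves both a fall and a rise within its interval.

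Glutathione reductase (Gsr), which regenerates reduced glutathione with NADPH, had signals of 232 and 361 with TGFb2, against 391 and 490 with PBS. The groups did not overlap, and the log2 difference was -0.57 (SE 0.23, 95% interval -1.12 to -0.03, limma adjusted p = 0.40). Its unadjusted limma p was 0.0422, and 11.6% of tested probe sets had one under 0.05. Of the enzymes that spend glutathione, the selenium-dependent peroxidase Gpx1 had signals of 383 and 202 with TGFb2, against 379 on each PBS array. TGFb2 replicate 2 was low, and TGFb2 replicate 1 lay at the level of the PBS arrays. The log2 difference was -0.42 (SE 0.27, 95% interval -1.06 to 0.22, limma adjusted p = 0.62), and 0.017 without TGFb2 replicate 2.

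Gstm1, a mu-class glutathione transferase that conjugates glutathione to reactive compounds, was measured by 2 probe sets that disagreed. The brighter one, with the suffix _f_at, had signals of 2177 and 1903 with TGFb2, against 3630 and 3240 with PBS. It fell by 40.6% in mean signal, with all TGFb2 values below all PBS values and a log2 difference of -0.75 (SE 0.13, 95% interval -1.05 to -0.45, limma adjusted p = 0.0465). The call sat at the threshold and was lost without any 1 array: limma adjusted p was 0.113 and 0.128 without TGFb2 replicates 1 and 2, and 0.217 and 0.114 without PBS replicates 1 and 2. It was also lost without a pseudocount (limma adjusted p = 0.0534), without the filter (0.180) and without an intensity trend in the fit (0.217). The dimmer one, with the suffix _r_at, had signals of 294 and 121 with TGFb2, against 160 and 173 with PBS, so that the TGFb2 arrays enclosed the PBS arrays (log2 difference 0.18, SE 0.35, limma adjusted p = 0.90).

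The suffix _f_at marks probes that may be shared within a gene family and _r_at a set built under relaxed rules, so signals of the mu-class transferases are uncertain as to the gene. The 7 other tested mu-class probe sets, singled out after their values were seen, lay above 0 in 6 cases and below 0 in 1, and 0 passed (limma adjusted p under 0.05). Gstm3 read 368 and 292 with TGFb2, against 647 and 540 with PBS, a log2 difference of -0.82 (limma adjusted p = 0.105). The second Gstm3 probe set went the other way, at 0.68 (limma adjusted p = 0.32). The 2 Gstm2 probe sets differed by 0.41 and 0.32, and the 3 Gstm5 probe sets by 0.27, 0.47 and 1.37. The last of these read 56.8 and 171 with TGFb2, against 33.2 and 26.8 with PBS (SE 0.41, limma adjusted p = 0.23). The patterns nearest to the brighter Gstm1 probe set over the 4 arrays were those of Plk2, a polo-like kinase (distance 0.08), Pirb, an inhibitory immunoglobulin-like receptor (0.11), and Ddx6, an RNA helicase (0.12), with log2 differences of -0.77, -0.65 and -0.69 and limma adjusted p of 0.0539, 0.147 and 0.227.

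**Figure D2:**
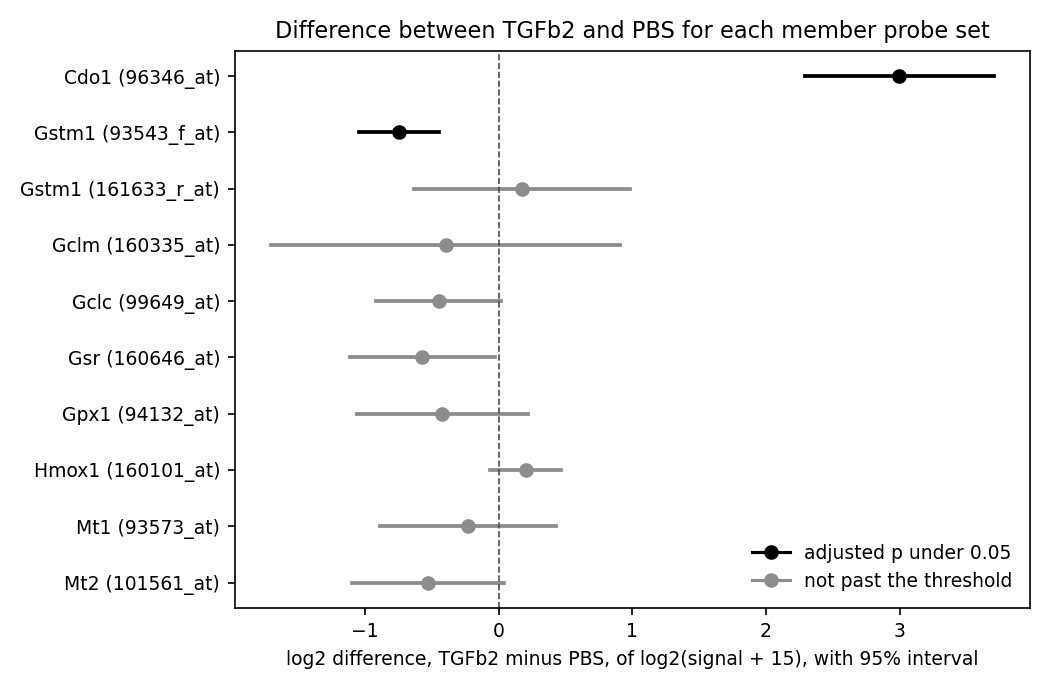
Log2 difference (TGFb2 minus PBS, of log2(signal + 15)) of each probe set with its 95% interval from limma. Black marks the 2 probe sets past an adjusted p of 0.05, Cdo1 at 3.00 and the brighter Gstm1 probe set at -0.75, and grey the 8 that did not pass, of which Gclm has the widest interval and Hmox1 the narrowest.

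Hmox1, which opens the heme ring and releases iron, carbon monoxide and biliverdin, had signals of 3376 and 3585 with TGFb2, against 2900 and 3147 with PBS. The TGFb2 arrays were the higher ones without overlap, but by a mean of 15.1% only. The log2 difference was 0.20 (SE 0.11, limma adjusted p = 0.56), and its 95% interval of -0.06 to 0.47 holds no 2-fold change in either direction.

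The metallothioneins Mt1 and Mt2 are small, cysteine-rich proteins that bind zinc and copper. Mt1 had signals of 769 and 426 with TGFb2, against 796 and 571 with PBS. The groups overlapped, and the log2 difference was -0.23 (SE 0.28, 95% interval -0.89 to 0.43, limma adjusted p = 0.81). Mt2 had signals of 357 and 227 with TGFb2, against 482 and 364 with PBS. Its groups did not overlap, by a margin of 357 to 364, and the log2 difference was -0.53 (SE 0.24, 95% interval -1.10 to 0.04, limma adjusted p = 0.46). For both genes replicate 1 read higher than replicate 2 in each group, at 1.81-fold with TGFb2 and 1.39-fold with PBS for Mt1 and at 1.57-fold and 1.32-fold for Mt2.

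For the 4 probe sets whose groups overlapped (Gclm, Gpx1, Mt1 and the dimmer Gstm1 one), the 2 arrays of at least 1 group lay farther apart than the group means. With 2 arrays in each group, overlap itself implies this. Replicate 2 lay below replicate 1 in both groups for 4 of the 10 probe sets (Cdo1, the brighter Gstm1 probe set, Mt1 and Mt2), as for 29.8% of all tested probe sets. It lay above replicate 1 in both groups for 3 (Gclm, Gsr and Hmox1), as for 24.7% of all tested. Ordered by the excess of replicate 2 over replicate 1 on the log2 scale, taking the smaller of the TGFb2 and the PBS value, Gclm ranked 2 of 7453. Within the arrays numbered 1 the Gclm signal with TGFb2 was 0.83 of that with PBS, and within those numbered 2 it was 0.66. The 9 probe sets of the bacterial and phage transcripts added as hybridisation controls (BioB, BioC, BioDn and CreX) were lower on replicate 2 in both groups, at 0.51 to 0.85 of replicate 1 with TGFb2 and 0.48 to 0.75 with PBS. The control probe sets of ribosomal RNA were all highest on PBS replicate 2. The brightest of them read 1066 there, against 248 on PBS replicate 1 and 196 and 261 with TGFb2. The part of these control differences in the members' values was not tested. The labels do not say that equal numbers share a culture, a day or an animal.

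**Figure D3:**
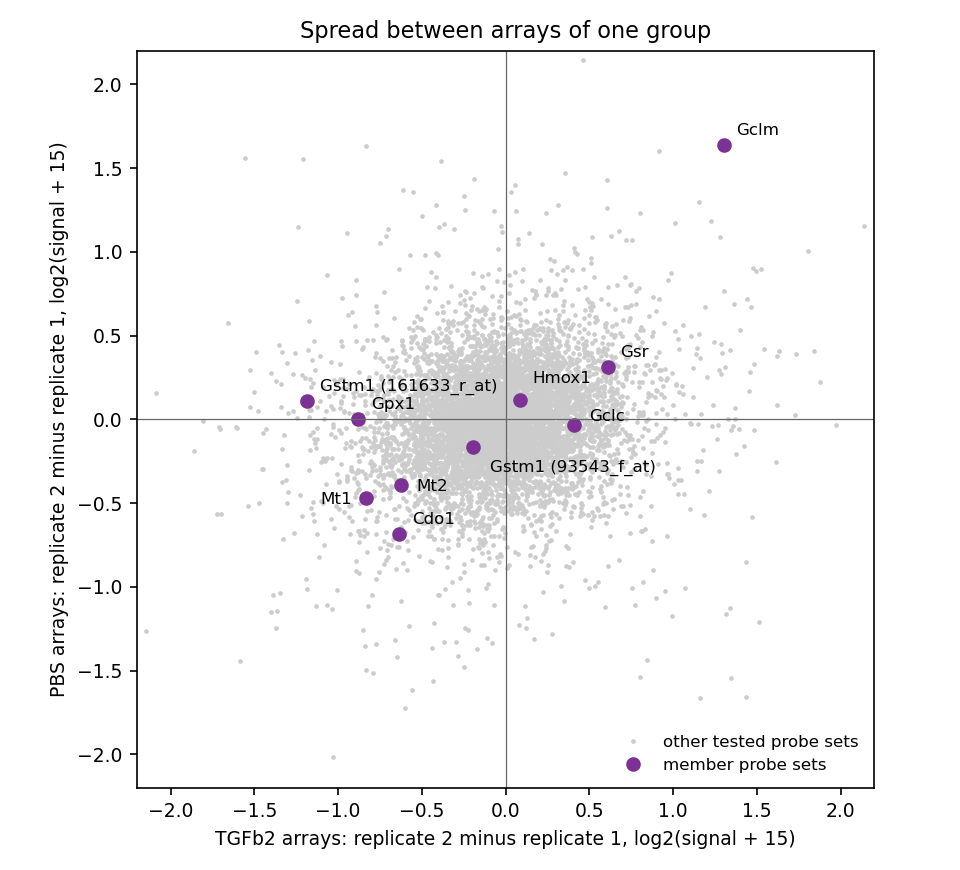
Difference of log2(signal + 15) between replicate 2 and replicate 1, on the TGFb2 arrays (horizontal axis) and on the PBS arrays (vertical axis), for the 10 probe sets (purple) and all other tested probe sets (grey, with 4 outside the axes). Gclm stands at the upper right, high on replicate 2 in both groups, and Mt1, Mt2 and Cdo1 at the lower left.

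Genes of the same pathways outside these 10 were read from 6 lists, each gene by its brightest probe set. Of 94 tested genes, 0 passed in either direction at a limma adjusted p of 0.05, where 1.21% of the 5639 tested genes passed. At an unadjusted limma p under 0.05 there were 18, or 19.1%, against 12.1% of all tested genes. The median difference over the 94 was 0.01, with 47 above and 47 below 0. Over all tested genes it was 0.0027, with 2838 above and 2801 below 0.

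Among 13 genes of cysteine supply and breakdown the median difference was 0.10, and 8 lay above 0. The taurine transporter Slc6a6 read 630 and 1084 with TGFb2, against 1135 and 1418 with PBS (log2 difference -0.61, limma adjusted p = 0.41), while its dimmer probe set differed by 0.05. Sqor, which oxidises hydrogen sulfide, differed by -0.58 (limma adjusted p = 0.51). Among 21 genes of glutathione synthesis and use the median was 0.17, and 14 lay above 0. The secreted peroxidase Gpx3 read 158 and 127 with TGFb2, against 48.6 and 67.9 with PBS, a log2 difference of 1.11 (SE 0.22, limma adjusted p = 0.0675). The microsomal transferase Mgst2 differed by 0.86 (limma adjusted p = 0.24).

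Among 15 genes of thioredoxin, peroxiredoxin and superoxide defence the median was -0.11, and 11 lay below 0. Sulfiredoxin (Srxn1), which repairs overoxidised peroxiredoxins and is a known Nrf2 target, read 174 and 274 with TGFb2, against 340 and 556 with PBS. Its log2 difference was -0.95 (SE 0.28, limma adjusted p = 0.23), while a second probe set of it differed by -0.17. Txnrd3, a thioredoxin reductase, differed by -0.85 in its brighter probe set (limma adjusted p = 0.0918) and by 0.52 in the dimmer one (limma adjusted p = 0.66). The cytosolic thioredoxin reductase Txnrd1, singled out after its values were seen, read 505 and 584 with TGFb2, against 890 and 1028 with PBS (log2 difference -0.80, SE 0.16, limma adjusted p = 0.0688). Msrb1, also singled out afterwards, had the largest rise in this list and read 2633 and 2277 with TGFb2, against 1688 and 1736 with PBS. It differed by 0.51 (limma adjusted p = 0.15).

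Among 12 regulators of Nrf2 and its partners the median was -0.04, and 7 lay below 0. The AP-1 subunit Jund differed by -0.57 (limma adjusted p = 0.0963) and Nfe2 by 0.36 (limma adjusted p = 0.65). Nfe2l2, which encodes Nrf2 and was also singled out afterwards, read 834 and 1048 with TGFb2, against 1093 and 1213 with PBS (log2 difference -0.30, limma adjusted p = 0.55). Among 18 genes of heme and iron handling the median was 0.04, and 10 lay above 0. Haptoglobin (Hp), which binds free hemoglobin, read 630 and 1419 with TGFb2, against 220 and 562 with PBS, a log2 difference of 1.39 with an SE of 0.47 (limma adjusted p = 0.29). Hfe, a regulator of iron uptake, differed by 0.74 (limma adjusted p = 0.23).

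Among 15 genes of zinc and copper handling the median was -0.02, and 9 lay below 0. The probe set of Mt3, a metallothionein best known from brain, read 541 and 426 with TGFb2, against 309 and 269 with PBS (log2 difference 0.71, SE 0.18, limma adjusted p = 0.16). Its sign was opposite to that of Mt1 and Mt2, but the 95% intervals of those genes both include 0. Mtf1, the zinc-sensing activator of metallothionein genes, read 11.1 and 43.7 with TGFb2, against 44.6 and 35.1 with PBS (log2 difference -0.48, limma adjusted p = 0.70).

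**Figure D4:**
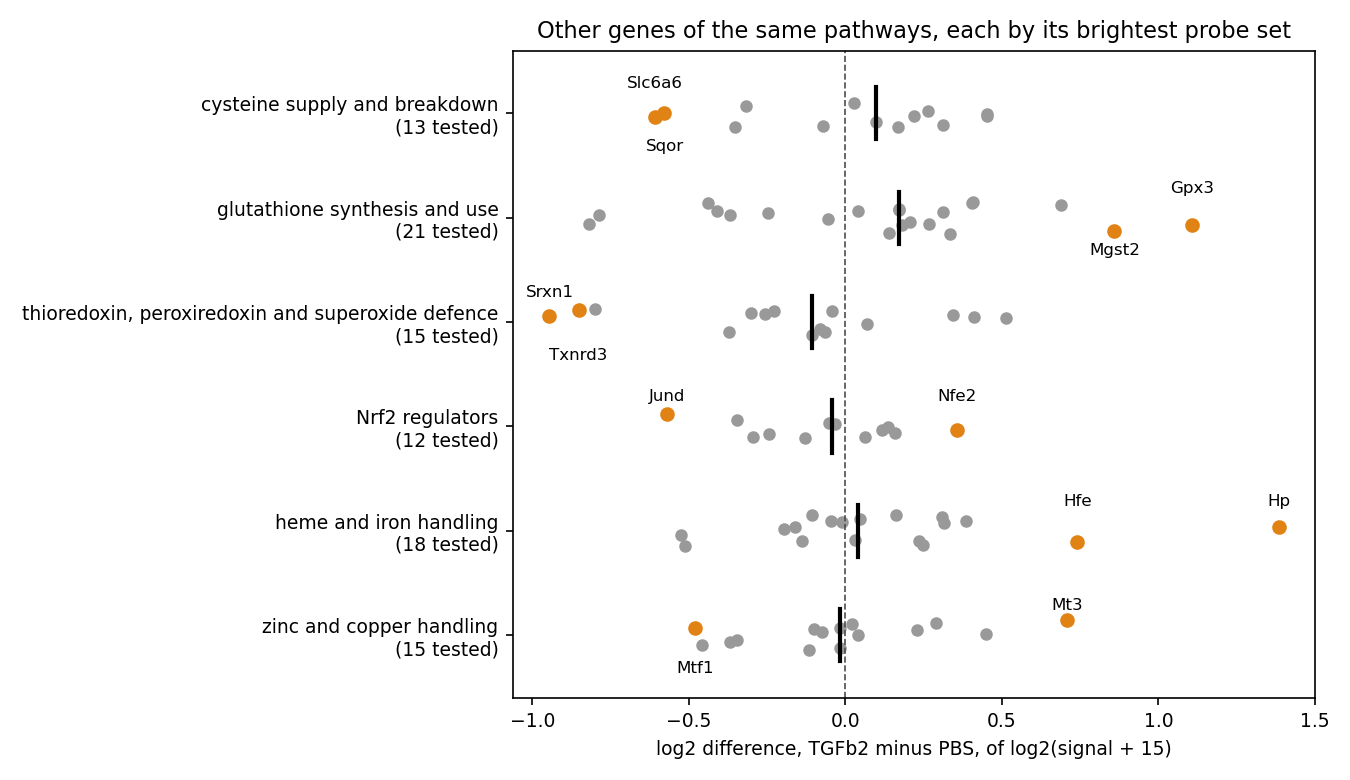
Log2 difference (TGFb2 minus PBS, of log2(signal + 15)) of each tested gene of 6 pathway lists, one point per gene by its brightest probe set, with the list's median as a black bar and the genes named in the text by rule in orange. Medians run from -0.11 (thioredoxin, peroxiredoxin and superoxide defence) to 0.17 (glutathione synthesis and use), and 0 of the 94 genes passed.

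Over all arrays, 88 of 7453 probe sets passed, 61 higher and 27 lower with TGFb2, and the median signals were 45.6 and 40.1 with TGFb2 and 43.5 and 40.6 with PBS. All 10 macrophage markers were tested and 0 passed, with summed signals of 17851 and 18286 with TGFb2 and 15946 and 16795 with PBS. These sums rest mainly on the brightest markers, Cd68 and Lyz2. The log2 differences of the 10 ran from -0.47 (Mrc1) to 1.13 (Fcgr1, limma adjusted p = 0.066). Adgre1, which encodes F4/80, read 471 and 748 with TGFb2 and 488 and 780 with PBS. Of 8 neutrophil markers, 5 lay below the level filter and 1 of the 3 tested rose (S100a8, 551 and 679 with TGFb2, against 129 and 211 with PBS). All 4 T cell markers on the array lay below the filter. All 4 B cell markers on the array were tested and 0 passed, with sums of 332 and 208 with TGFb2 and 359 and 314 with PBS. Of 6 mast cell and eosinophil markers on the array, 2 were tested and 0 passed. The mast cell marker Cma1 read 274 and 185 with TGFb2 and 252 and 269 with PBS. In such bulk RNA, fewer cells of a type and less RNA per cell cannot be told apart.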

How the data were processed

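Biotin-labelled cRNA was hybridised to Affymetrix arrays, 2 for TGFb2 and 2 for PBS. The deposited table holds a linear intensity per probe set, made with MAS5 as the submitters' processing notes state, with no version or detection calls given in the sources used here. The 2% trimmed mean was 150.1 on each array, so nothing was rescaled. Of 12488 probe sets, 66 controls were left out, 10833 had 1 symbol, 396 several and 1193 none. Members were found by exact symbol, and all 10 of their probe sets matched the GRCm38.p6 table by gene ID. Probe sets whose mean log2(signal + 15) reached the 40th percentile (24.01 as a signal) entered the test with limma 3.58.1 in R 4.3.3 (lmFit, eBayes with an intensity trend, 2 residual and 5.6 prior degrees of freedom), TGFb2 minus PBS, two-sided, with Benjamini-Hochberg adjustment over all 7453. The fit was tested on simulated data.

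Members, lists and tests were chosen with earlier results of these data known. The text names every member, up to 2 genes per direction and list past the threshold (otherwise the 2 with the largest absolute difference), and the 3 probe sets of other genes nearest to each member past it. Alternatives were another pseudocount (60 or none), quantile or cyclic loess normalization, no filter or the 60th percentile, no intensity trend, robust eBayes, the replicate number as a block, averaging the probe sets of a gene, and dropping each array in turn. No array or scan date is given in the sources used here. The number of arrays limits the precision. No 2 arrays shared more than 98 equal values.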

Additional observations from a re-analysis of the deposited data

How the results depend on the processing

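The number of probe sets past the threshold was 88 and became 57 without a pseudocount, 6 without the filter, 16 without the intensity trend, 320 with the replicate block, and 11 to 42 when 1 array was left out, where the remaining array of that group borrowed its spread from the other one. The count among the 10 probe sets was 2 and became 1 without a pseudocount, 0 without the filter, 1 without the intensity trend and 0 to 1 with 1 array left out. It stayed 2 with the replicate block (Cdo1 and the brighter Gstm1 probe set, limma adjusted p = 8e-07 and 0.0020). The 94 pathway genes gave 0 calls in every setting but the replicate block, which gave 13, among them Txnrd1, Srxn1, Gpx3, Hp and Mt3. The numbers are not stated to pair the arrays, and deviations of equally numbered arrays from their group means correlated at 0.15 across tested probe sets, which are not independent. Of the 10 member differences, 6 kept their sign under all 13 alternatives, and the 8 that did not pass did not pass under any of them. The other 4 changed sign only when 1 array was left out, with ranges of -0.41 to 0.77 for the dimmer Gstm1 probe set, -1.22 to 0.42 for Gclm (0.25 without TGFb2 replicate 1), -0.86 to 0.017 for Gpx1 and -0.65 to 0.19 for Mt1 (0.0041 without PBS replicate 1). The cause of these shifts was not tested.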

Other observations

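Some genes of the same pathways differed between arrays numbered 1 and 2 in both groups. Ranked by the excess of replicate 2 over replicate 1, taking the smaller of the values of the 2 groups, Hp was 5, Srxn1 41, Alas1, the first enzyme of heme synthesis, 81 and Sqor 92 of 7453 tested probe sets, with Gclm at 2. Hp on replicate 2 was 2.25-fold replicate 1 with TGFb2 and 2.56-fold with PBS, and Srxn1 1.57-fold and 1.64-fold. Alas1 read 452 and 645 with TGFb2, against 507 and 763 with PBS. Outside these pathways Acod1, which makes itaconate in activated macrophages, ranked 9, with signals of 94.0 and 191 with TGFb2 and 80.9 and 276 with PBS. These genes were chosen after their values were seen, and what the arrays numbered 2 had in common was not tested.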
